A study of Homo sapiens with 3 samples.

Results

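The machinery that makes and uses microRNAs was followed through 10 genes: DROSHA, DGCR8, XPO5, DICER1, AGO1, AGO2, AGO3, TNRC6A, TNRC6B and TNRC6C. They were chosen by symbol among the 18417 named genes of the array, all 10 were measured by 1 probe set each, and all 10 passed the level filter that left 12057 genes. The samples were RNA on polysomes (bound), RNA free of them (unbound) and total RNA of H9, a widely used line of human embryonic stem cells, kept pluripotent, with no genetic change or treatment named in the labels. Each source was hybridised to 1 whole-transcript gene array, so no difference below has a replicate check and no p-value is given. H9 is a single line and stands for no other line, and in bulk RNA fewer cells of a type and less RNA per cell cannot be told apart.

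A microRNA starts as a hairpin in a longer nuclear transcript. The Microprocessor, made of the nuclease DROSHA and its RNA-binding partner DGCR8, cuts the hairpin out, the export receptor XPO5 carries it to the cytoplasm, and the nuclease DICER1 trims it to a short duplex. An Argonaute protein keeps 1 strand as a guide, and a TNRC6 (GW182) protein links the Argonaute on a target mRNA to deadenylases that shorten its tail and to translational repression. In pluripotent cells this pathway is known to serve a few abundant families, above all miR-302, while LIN28A holds back let-7.

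Values are the deposited log2 levels after RMA, whose steps include a background correction and a summary of probes. The arrays differed in overall level: over the 12057 genes the median bound minus unbound difference was 1.20, bound minus total 0.89 and unbound minus total -0.30. A relative difference, used below, is the log2 difference minus that median, and a gene counts as apart at a relative difference of at least 1 in size (2-fold). Background on an array was the 95th percentile of 480 tissue-restricted genes, 4.40 on the bound, 3.56 on the unbound and 3.76 on the total RNA array. In total RNA 63.5% of all named genes were above background. Of measured pluripotency markers 16 of 18 were, with LIN28A at 11.10 and SOX2 at 9.50. So were 8 of 10 fibroblast and 10 of 13 germ layer markers. With the line at the 99th percentile (4.98) these counts were 15, 5 and 4, and the part of other cells in the results was not tested.

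All 10 mRNAs were expressed in total RNA, each above the 95th and the 99th percentile of background there. Each was above background on the other arrays as well. Most named genes were too: 63.5% in total RNA, 64.9% in bound RNA and 63.1% in unbound RNA lay above the 95th percentile. XPO5 had a log2 level of 8.92 in total RNA, higher than 94.4% of the named genes, and DROSHA had 8.48 (91.5%). DICER1 stood at 8.19, AGO1 at 7.99, TNRC6A at 7.69, AGO2 at 7.28 and TNRC6B at 7.24. Lowest on their scales were AGO3 at 6.46, DGCR8 at 6.23 and TNRC6C at 5.79, the last higher than 62.3% of the named genes. Probe sets bind with different strength, so these levels place each gene against background and do not rank amounts of RNA between genes.

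**Figure D1:**
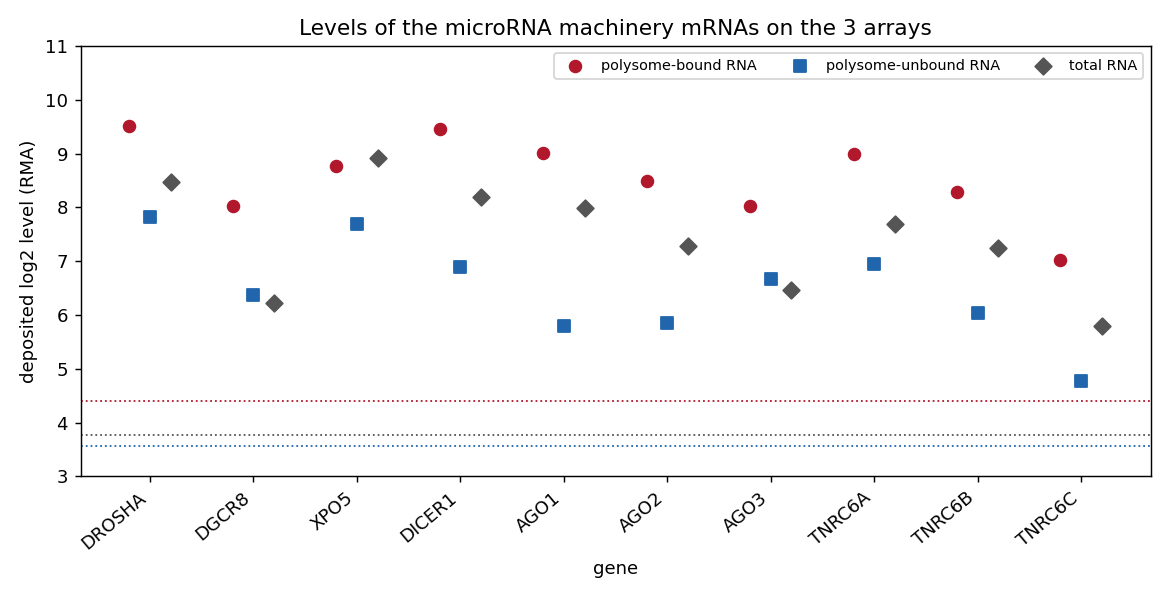
Deposited log2 level (vertical axis) of each of the 10 genes (horizontal axis) in polysome-bound (circles), polysome-unbound (squares) and total RNA (diamonds), 1 array each; dotted lines mark background on each array in the same colour. All 30 points lie above the line of their array, and AGO1 has the widest gap between bound (9.02) and unbound (5.79).

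Setting bound beside unbound RNA asks which of these mRNAs are carried on polysomes. The mRNAs of AGO1, AGO2 and DICER1 had the largest relative differences toward polysomes among the 10, those of the TNRC6 genes came next, and those of DROSHA, DGCR8, AGO3 and XPO5 lay closer to the typical gene. DICER1, AGO1, AGO2, TNRC6B and TNRC6C, 5 of the 10, exceeded the line of 2-fold toward bound RNA and 0 exceeded it toward unbound RNA, against 7.65% and 8.68% of all genes. The median relative difference of the 10 was 0.96, against 0 over all genes by construction, and 9 of 10 lay above 0, against 50.0% of all genes. In the deposited values all 10 were 2-fold or more higher in bound RNA and 0 lower, against 61.4% and 1.56% of all genes, so that direction was shared by most of the array.

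AGO1, an Argonaute that binds guides and recruits silencing factors, had 9.02 in bound RNA and 5.79 in unbound RNA. Its relative difference was 2.03 (4.08-fold) and only 20 of the 12057 genes had a larger one. AGO2, the Argonaute with slicer activity, had 8.48 in bound RNA and 5.86 in unbound RNA, a relative difference of 1.43 (2.70-fold). AGO3 had 8.02 in bound RNA and 6.67 in unbound RNA, a relative difference of 0.15, which put it at percentile 58.9 of all genes. The Argonaute mRNAs thus did not move as a family: AGO1 and AGO3 were 1.88 apart in relative difference. AGO4, AGO1 and AGO3 are consecutive protein-coding genes on chromosome 1, and AGO4 (8.17 in bound RNA, 6.56 in unbound RNA, relative difference 0.41) lay nearer to AGO3 than to AGO1.

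The 3 TNRC6 mRNAs lay close together. TNRC6B had 8.29 in bound RNA and 6.03 in unbound RNA (relative difference 1.07), TNRC6C had 7.03 and 4.77 (1.06), and TNRC6A had 8.99 and 6.94 (0.85). The line of 2-fold therefore runs between members that differ by 0.22 or less. TNRC6B and TNRC6C were below it after lowess took out the trend with signal (0.96 and 0.96) and with the stricter level filter (0.99 and 0.98), and TNRC6C did so when the array medians set the offset (0.99). DICER1 had 9.46 in bound RNA and 6.89 in unbound RNA, a relative difference of 1.37 (2.59-fold), at percentile 97.6. DICER1-AS1, a noncoding transcript named as antisense to it, lay the other way, with 5.04 in bound RNA and 5.38 in unbound RNA and a relative difference of -1.54. It was dim, at 4.08 in total RNA.

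The Microprocessor and export mRNAs had relative differences below 2-fold, as AGO3 did. DROSHA had 9.52 in bound RNA and 7.82 in unbound RNA (relative difference 0.50, percentile 76.4), and DGCR8 had 8.03 and 6.37 (0.46, percentile 74.6). Both partners of the Microprocessor lay 0.04 apart. XPO5 had 8.78 in bound RNA and 7.68 in unbound RNA, and its relative difference of -0.10 (percentile 44.1) was 1.09 as deposited and 0.38 when the background genes set the offset. DICER1 and XPO5, which act in succession on the same hairpin, were 1.48 apart.

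**Figure D2:**
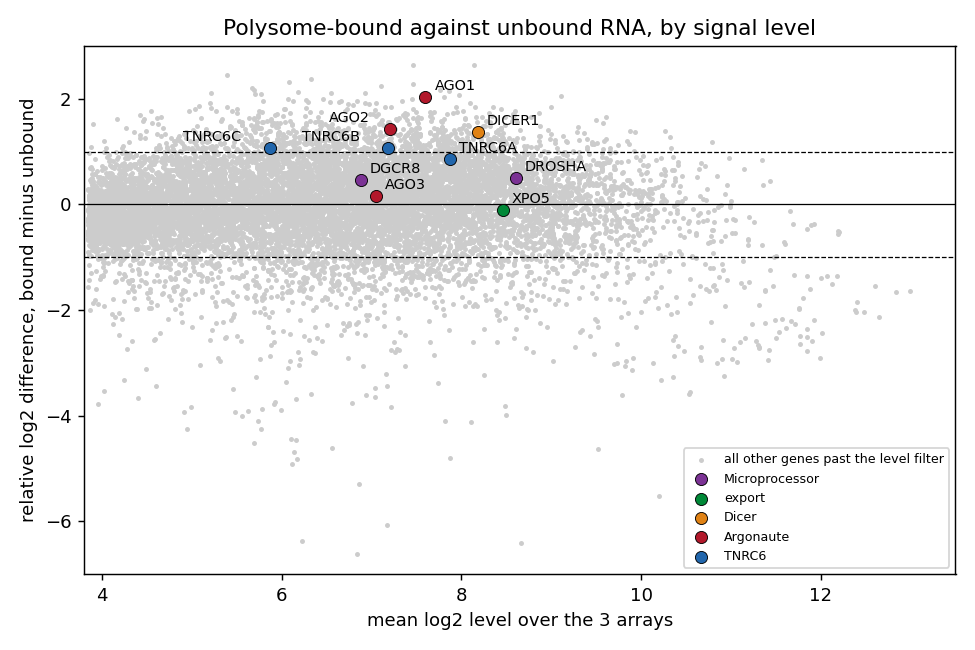
Relative log2 difference, bound minus unbound (vertical axis), against the mean log2 level over the 3 arrays (horizontal axis) for the 12057 genes past the filter (grey) and the 10 machinery genes (coloured by step); dashed lines mark 2-fold. AGO1 (2.03), AGO2 (1.43) and DICER1 (1.37) lie near the upper edge of the cloud, and XPO5 (-0.10) and AGO3 (0.15) lie in its middle.

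Signal level and gene length moved with this readout across the array. Among the 6100 genes in the same range of mean level as the 10 (5.87 to 8.61), 10.8% passed 2-fold toward bound RNA. Among genes that span more than 53.9 kb on the genome the share was 11.9%, against 7.79% of those of middle span and 3.19% of those of at most 16.4 kb. The 10 genes span 31.6 to 291 kb, with a median of 126.9 kb against 30.2 kb over all genes, and 8 of them exceed 53.9 kb. Within the 10, the shortest genes, DGCR8 (31.6 kb) and XPO5 (53.7 kb), had relative differences of 0.46 and -0.10, AGO1 (60.8 kb) had 2.03, AGO3 (141.8 kb) 0.15 and the longest, TNRC6B (291 kb), 1.07. The part of level and span in the result was not tested.

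**Figure D3:**
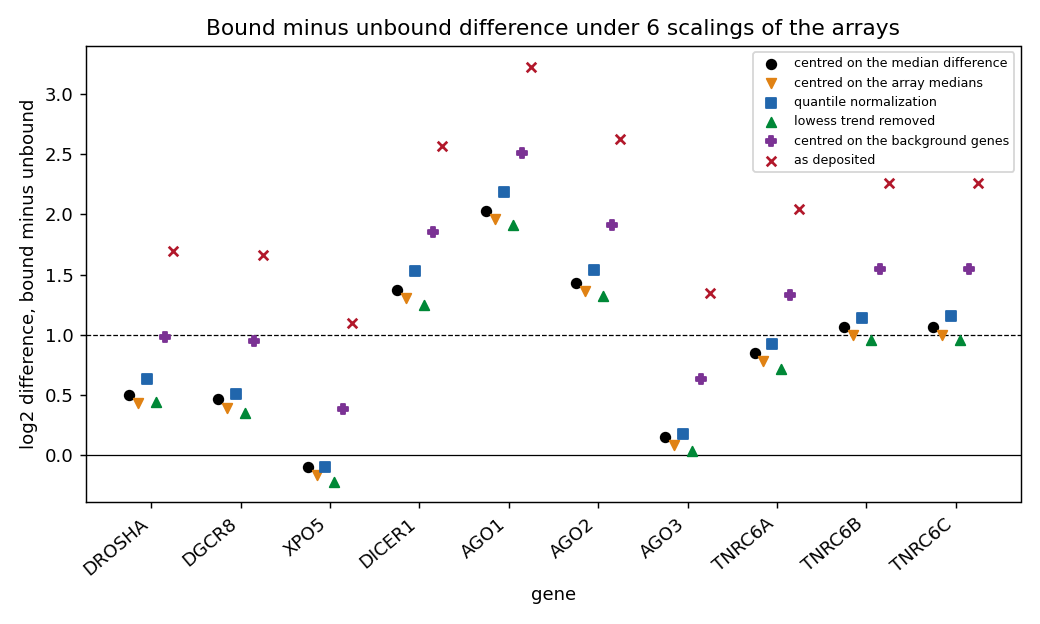
Log2 difference, bound minus unbound (vertical axis), of each gene (horizontal axis) under 6 ways of scaling the 1 bound and the 1 unbound array; the dashed line marks 2-fold. AGO1 stays between 1.91 and 3.23 and AGO2 between 1.32 and 2.63, TNRC6B and TNRC6C range from 0.96, just under the line, to 2.26 as deposited, and XPO5 changes sign.

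Ribosomal protein and other mRNAs with a 5′ terminal oligopyrimidine tract, a C at the start followed by a run of C or T, are a well known class that leaves polysomes when growth signals are low. Of its members RPS21 had a relative bound minus unbound difference of -3.38 here, and EEF1A1, from the brighter of its 2 probe sets, of -1.63. They were chosen as examples after their values were seen. The first bases of the machinery mRNAs are shown for the member most to the bound side, its neighbour AGO3, DGCR8 and the member least to the bound side, with RPS21 and EEF1A1 as examples of the tract. Each run is 30 bases of RefSeq sequence (GRCh38.p14), 5′ to 3′ on the strand of the gene, with the transcribed bases in capitals, at chr1:35883194-35883223 (+) for AGO1, chr1:35931090-35931119 (+) for AGO3, chr22:20080226-20080255 (+) for DGCR8, chr6:43576024-43576053 (-) for XPO5, chr20:62387088-62387117 (+) for RPS21 and chr6:73521018-73521047 (-) for EEF1A1.
AGO1: cggtcgcgcctgcgcACTGGCAGCTGGCCG
AGO3: ggggcggccccgggcAGGTCGGCGGCGGCG
DGCR8: ccgcgaaggcccgccCTCCGCTCGCCCGGC
XPO5: tggcgggccgggcgcGTGCGCAGCGCCGGC
RPS21: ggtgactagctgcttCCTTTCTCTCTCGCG
EEF1A1: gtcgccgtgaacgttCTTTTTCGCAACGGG
A start with C and at least 4 further C or T, read on the strand of the gene only, was found at 0 of 16 annotated starts of the 9 members that the sequence table holds. It was found at 4.07% of all 35116 starts and at 56.5% of 85 starts of ribosomal protein genes. DGCR8 comes nearest of the members shown, with a C at its start and a G at the fifth base. Annotated starts need not be those used in H9 cells, and AGO2 was not used here.

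Against total RNA, XPO5 stood apart from the other machinery mRNAs. It had 8.78 in bound RNA and 8.92 in total RNA, a relative difference of -1.03 that placed it at percentile 4.3, so that 1 of the 10 was at least 2-fold lower, XPO5 itself, against 4.56% of all genes, and 0 were 2-fold higher, against 3.92%. The call on XPO5 sits at the line: its relative difference was -0.84 after quantile normalization, -0.86 after lowess, -0.81 with no level filter and -0.56 when the background genes set the offset. DGCR8 lay at the other end, with 8.03 in bound RNA and 6.23 in total RNA (relative difference 0.92, percentile 95.2), followed by AGO3 with 8.02 and 6.46 (0.68, percentile 90.5). The remaining 7 lay between 0.15 (AGO1) and 0.41 (TNRC6A). In the deposited values 9 of 10 lay 2-fold or more toward bound RNA and 0 toward total RNA, against 40.1% and 0.572% of all genes.

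In unbound against total RNA the relative differences lay below 0 for all of the 10 but DGCR8 and AGO3, with the Argonautes at both ends. AGO1, with 5.79 in unbound RNA and 7.99 in total RNA, had a relative difference of -1.89 (percentile 0.9), and AGO2, with 5.86 and 7.28, had -1.11 (percentile 6.7). These 2 were at least 2-fold lower and 0 of the 10 were higher, against 8.62% and 9.16% of all genes. DICER1 at -1.0 fell just short of the line (1.999-fold), XPO5 at -0.94 and TNRC6B at -0.91 were near it, and TNRC6C (-0.72), TNRC6A (-0.45) and DROSHA (-0.35) were smaller. DGCR8, with 6.37 in unbound RNA and 6.23 in total RNA, and AGO3, with 6.67 and 6.46, lay on the upper side at 0.45 and 0.52, as did AGO4 (0.38). As deposited, 6 of 10 were at least 2-fold lower and 0 higher, against 16.0% and 5.42% of all genes. Total RNA was purified with another kit than the polysome pools, a difference that cannot be told apart from the source, and the comparisons share arrays: as deposited, a gene's bound minus unbound difference equals its bound minus total less its unbound minus total difference.

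The 3 arrays gave 3 patterns among the 10. After centring, 7 genes (DROSHA, DICER1, AGO1, AGO2, TNRC6A, TNRC6B and TNRC6C) were highest in bound RNA, then total RNA, then unbound RNA. DGCR8 and AGO3 were lowest in total RNA, the order that AGO4 also took. XPO5 alone among the 10 was highest in total RNA. Ranks within each array, which no monotone rescaling of an array alters, gave the same picture. AGO1 was higher than 90.0% of named genes in bound RNA, 64.9% in unbound RNA and 87.3% in total RNA, and AGO2 had 84.0%, 65.8% and 79.9%. XPO5 had 87.5%, 89.2% and 94.4% on the same arrays, and AGO3 had 78.1%, 76.7% and 70.2%. DICER1 had 93.9%, 79.7% and 89.2%.

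**Figure D4:**
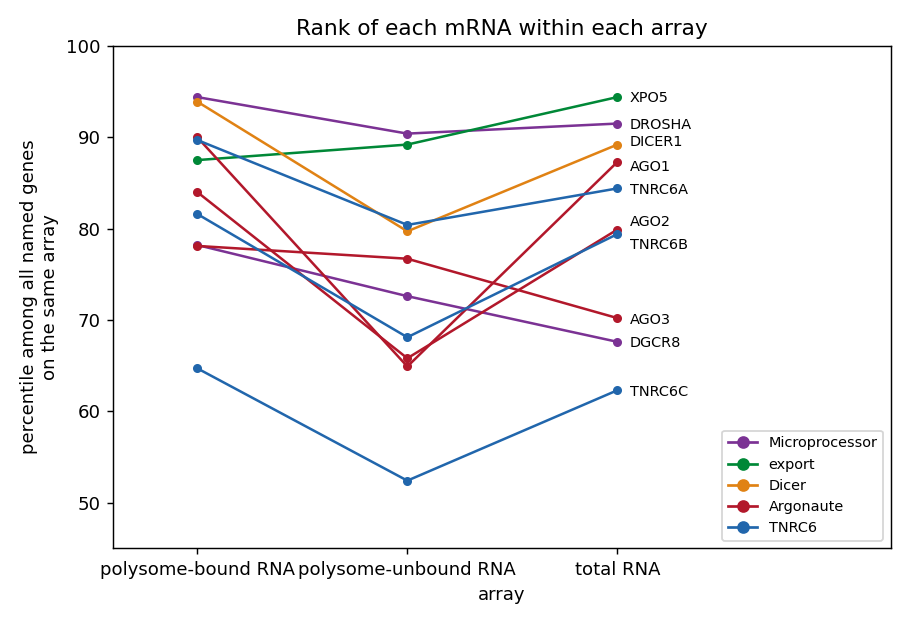
Percentile of each mRNA among the 18417 named genes of an array (vertical axis) on the bound, unbound and total RNA arrays (horizontal axis), each 1 sample, coloured by step of the pathway. The lines for AGO1, AGO2, DICER1 and the TNRC6 genes dip at the unbound array, those for DGCR8 and AGO3 descend from left to right, and that for XPO5 ascends.

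Few genes shared the profile of AGO1. Measured by distance over the relative differences bound minus unbound and bound minus total, the nearest protein-coding genes were GOLIM4 (distance 0.13), ZYG11B (0.13) and CCDC88A (0.16), and 6 of 11308 genes lay within 0.25. XPO5 had more neighbours than AGO1: TM9SF2 (0.02), TBL3 (0.02) and NRCAM (0.03) were nearest, and 141 genes lay within 0.25. AGO1 lay at percentile 99.8 and XPO5 at percentile 44.1 in bound minus unbound, a value that enters the distance. Few genes lie near the end of that range, so the small number around AGO1 follows from its value there. The number around a typical gene was not counted. These likenesses rest on 3 arrays.

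The 82 measured genes of a wider microRNA pathway list had medians near those of all genes. In bound against unbound RNA 4 of the 82 were 2-fold or more higher and 11 lower, against 7.65% and 8.68% of all genes, with a median relative difference of -0.04. That split depended on the scaling, at 10 higher and 7 lower after quantile normalization, 5 and 7 after lowess and 51 and 1 as deposited, where 61.4% and 1.56% of all genes were apart. Against total RNA the bound array had 1 higher and 8 lower, against 3.92% and 4.56% of all genes (3 and 1 after quantile normalization, 2 and 1 after lowess). As deposited these counts were 25 and 0, against 40.1% and 0.572% of all genes. The unbound array had 3 higher and 10 lower against total RNA, where all genes had 9.16% and 8.62%. After lowess it had 4 and 8, against 9.39% and 7.56% of all genes. As deposited these counts were 1 and 21, against 5.42% and 16.0% of all genes. The list was not compared with the 10 by a test.

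Among 12 measured cofactors of the Microprocessor, 0 passed 2-fold toward bound RNA and 2 toward unbound RNA, with a median of 0.08. Of all genes 7.65% and 8.68% did so. The RNA-editing enzyme ADAR (0.71) was highest and the helicase DDX5 (-1.07), a Microprocessor subunit, lowest, with the splicing factor HNRNPA1 at -1.04. For the 8 partners in export and dicing the counts were 0 and 0, with a median of -0.14. They ran from the import receptor TNPO1 (0.97) to the GTPase RAN (-0.55), which drives XPO5. RAN took the brighter of its 2 probe sets. The Dicer partners TARBP2 and PRKRA had -0.20 and -0.11, apart from DICER1 itself at 1.37.

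Of 11 regulators of let-7 and of RNA tailing, 1 was higher and 0 were lower, with a median of 0.12. The shares of all genes were 7.65% and 8.68%. TRIM71, a let-7 target that binds mRNAs, led with 1.10, and the nuclease XRN2 was lowest at -0.91. The paralogs LIN28A and LIN28B lay on opposite sides. LIN28A, from the brighter of its 2 probe sets, had 11.50 in bound RNA and 10.98 in unbound RNA (-0.68 relative, 0.52 as deposited). LIN28B had 9.81 and 7.71 (0.91 relative, 2.11 as deposited). Of 23 genes for Argonaute loading and regulation, 3 were higher and 4 lower, against the same shares of all genes, with a median of -0.04. ANKRD52, the scaffold of a phosphatase that acts on AGO2, had 7.84 in bound RNA and 4.64 in unbound RNA (2.0). Beside it were the initiation factor EIF1AX (1.14) and LIMD1 (1.02), a linker of Argonaute to TNRC6. EIF1AX took the brighter of its 2 probe sets, and with probe sets averaged the whole pathway list had 3 genes higher in place of 4. Of those 4 only EIF1AX had more than 1 probe set. The chaperones HSPA8 (-1.86) and HSP90AB1 (-1.60) were among the 4 lower, with the nuclease SND1 (-1.78) and the RNA-binding protein FXR1 (-1.43).

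The 28 genes listed as silencing effectors had a median of -0.04, with 0 higher and 5 lower, against 7.65% and 8.68% of all genes. PAN2, a deadenylase subunit, was highest at 0.92. PABPC1, the poly(A)-binding protein that TNRC6 contacts, had 10.90 in bound RNA and 12.13 in unbound RNA, a relative difference of -2.42, the lowest of the 82 genes, and its paralog PABPC4 had -1.56. The others at least 2-fold lower were TOB1 (-1.77), EIF4ENIF1 (-1.18) and CNOT10 (-1.0), the last only just (2.001-fold). The helicase DDX6, which acts downstream of the CCR4-NOT complex, had 0.13.

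**Figure D5:**
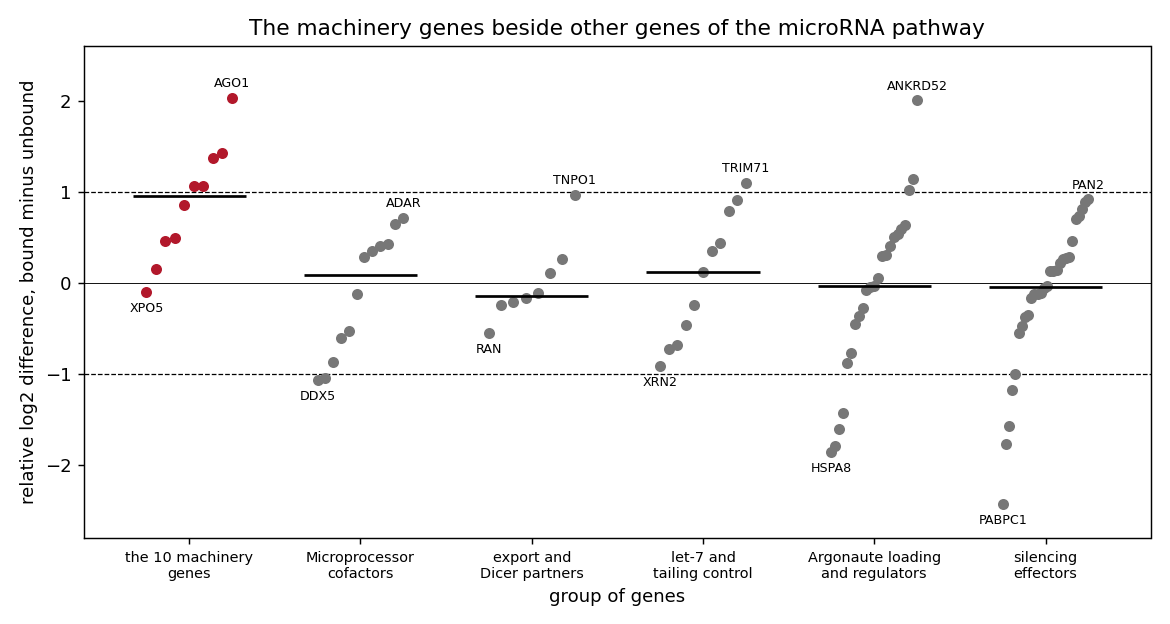
Relative log2 difference, bound minus unbound (vertical axis), for the 10 machinery genes (red) and for 82 other genes of the pathway by role (grey), 1 point per gene in rising order; horizontal bars mark medians, dashed lines 2-fold, and the highest and lowest gene of each group is named. The median of the 10 is 0.96 and those of the 5 roles lie between -0.14 and 0.12.

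Some of these genes carry microRNAs themselves. The Microprocessor is known to cut hairpins within the DGCR8 mRNA, and the microRNAs that RefSeq places inside DGCR8 are shown here with the seed (bases 2 to 8) in capitals, at chr22:20085797-20085818 (+), chr22:20086072-20086093 (+) and chr22:20086112-20086129 (+) on GRCh38.p14. The main microRNA of pluripotent cells follows as 2 family members of 1 shared seed, at chr4:112648186-112648208 (-) and chr4:112648489-112648511 (-).
hsa-miR-3618: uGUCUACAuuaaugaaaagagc
hsa-miR-1306-5p: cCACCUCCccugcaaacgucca
hsa-miR-1306-3p: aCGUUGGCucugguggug
hsa-miR-302a-3p: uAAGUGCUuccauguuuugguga
hsa-miR-302b-3p: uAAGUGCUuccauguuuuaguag
The genes of the last pair, MIR302A and MIR302B, whose transcripts are substrates of this machinery, had probe sets of their own. Whether their signal came from the hairpin or from the longer transcript that holds it was not tested. MIR302A had 4.34 in bound RNA, not above background, 7.82 in unbound RNA and 6.24 in total RNA. MIR302B had 4.07, also not above background, 7.32 and 6.92 on the same arrays. Bound RNA was thus at least 10.7-fold (MIR302A) and at least 7.6-fold (MIR302B) below unbound RNA as deposited. In those values all 10 machinery mRNAs were 2-fold or more higher in bound RNA, as were 61.4% of all genes. The probe set of MIRLET7A1, a let-7 gene, was not above background on any of the 3 arrays.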

How the data were processed

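RNA of 3 sources (polysome-bound, polysome-unbound, total) was measured on 1 array each, and the labels' sample type gave the groups. Deposited by the authors were log2 values, 1 per probe set and array, made with Partek 6.5 and RMA per the submitters' processing notes. Because the distributions of the columns differ, how arrays were scaled to each other is unknown. The bound column seems to hold an added constant of 0.1127 to 0.114, which centring removes. Per the labels' protocols, PureLink columns served for polysome pools and RNeasy Plus columns for total RNA. The method of polysome separation was not given in the sources used here. Signal over background and the single array per source limit the precision.

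Of 33297 probe sets, 19460 list 1 gene symbol in GEO's platform annotation, and 1754 with several and 12083 without were not named. A gene with several probe sets took the one with the highest mean. Genes with a mean level above 3.84 (the 95th percentile of 480 olfactory and taste receptor, keratin-associated protein and defensin genes) were kept. Differences were centred on their median over these genes. RefSeq (GRCh38.p14) gave spans, sequences and names, and all 10 members matched it by gene ID. Of 87 pathway genes listed, 82 were measured by a probe set of 1 symbol, and the others are not reported here.

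All 10 members were named. Each role of the pathway list names its highest and lowest gene for bound minus unbound, with AGO4, LIN28A, LIN28B, TARBP2, PRKRA and DDX6. The 3 nearest profiles were taken for the members with the highest and lowest bound minus unbound. Further pathway genes (HNRNPA1, EIF1AX, LIMD1, HSP90AB1, SND1, FXR1, PABPC4, TOB1, EIF4ENIF1, CNOT10), the antisense transcript and the microRNA genes were chosen after their values were seen. Members and lists were chosen with earlier results of these data known. Scripts were tested on simulated data. The software was matplotlib 3.10.9, statsmodels 0.14.6, pandas 2.3.3 and numpy 2.4.6 under Python 3.11.15.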

Additional observations from a re-analysis of the deposited data

How the results depend on the processing

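Counts of genes at least 2-fold apart were recomputed under other scalings, filters and thresholds, of which centring on the difference of the array medians or on the background genes was chosen after seeing the data. For the 10 machinery genes, bound minus unbound gave 5 higher and 0 lower, and the count higher became 10 as deposited, 3 after lowess (span 0.3), 3 with the filter at the 99th percentile of background and 1 at 3-fold. Bound minus total gave 0 higher and 1 lower, and became 9 and 0 as deposited, 0 lower after quantile normalization, after lowess and at 3-fold, 1 and 0 with no filter, 2 and 0 centred on the background genes, and 2 higher at 1.5-fold. Unbound minus total gave 2 lower, and became 6 as deposited, 6 at 1.5-fold, 1 at 3-fold and 4 centred on the array medians. For the pathway genes, bound minus unbound gave 4 higher and 11 lower, against 51 and 1 as deposited, 10 and 7 after quantile normalization, 7 lower after lowess, 10 and 7 with no filter, 16 and 18 at 1.5-fold, 1 and 5 at 3-fold, and 17 and 6 centred on the background genes. The shares of all genes moved as well, from 7.65% higher and 8.68% lower to 61.4% and 1.56% as deposited, 10.8% and 7.29% after quantile normalization, 6.38% and 9.33% after lowess, 9.74% and 3.82% with no filter, 20.1% and 19.2% at 1.5-fold, 1.14% and 3.48% at 3-fold, and 22.8% and 4.03% centred on the background genes. With the filter at the 99th percentile of background these shares were 7.49% and 11.1%. For the pathway genes, bound minus total gave 1 and 8, against 25 and 0 as deposited. It gave 3 and 1 after quantile normalization, 2 and 1 after lowess and 3 and 5 with no filter. At 1.5-fold it gave 7 and 20, at 3-fold 0 and 2, and centred on the background genes 8 and 4. Of all genes 3.92% were higher and 4.56% lower, against 40.1% and 0.572% as deposited. Quantile normalization gave 3.24% and 3.41%, lowess 3.23% and 3.68%, and no filter 4.62% and 1.92%. The shares were 12.5% and 13.0% at 1.5-fold, 0.78% and 1.08% at 3-fold, and 14.5% and 1.41% centred on the background genes. Unbound minus total gave 3 and 10, against 1 and 21 as deposited, 10 and 21 at 1.5-fold, and 1 and 1 at 3-fold. Thresholds change counts by construction; for the rest the cause was not tested. No called difference of a machinery gene changed sign, and AGO1, AGO2 and DICER1 stayed past 2-fold toward bound RNA, against unbound RNA, under every scaling and filter run. Subtracting the constant and averaging probe sets moved no count by over 1.5 times. No paired analysis was possible because each source has 1 array. Genes near background and a single array per source limit what can be seen.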
